A study of Mus musculus with 2 samples.

Results

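The B cells of mouse liver nonparenchymal preparations were examined in 2 single-cell libraries, 871 cells among 13603 that passed the quality limits (mitochondrial share of unique molecular identifiers, UMIs, under 10% and over 200 genes). The members were chosen by measured values of single cells: at least 5 summed UMIs of Cd79a, Cd79b and Ms4a1, at most 1 summed UMI of the T and NK genes Cd3d, Cd3e, Cd3g and Nkg7, at most 1 UMI of Siglech, under 25 UMIs per 10000 of the endothelial genes Kdr, Ptprb and Flt4, and not both 5 Mzb1 and 20 Jchain UMIs, as a plasma cell would have. Those genes therefore describe the choice and are no finding. The normal library gave 558 B cells among 7471 kept cells and the fibrosis library 313 among 6132, with 1961473 and 1088670 UMIs in all and 1128 to 68200 and 1225 to 52381 per cell.

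Both libraries came from male C57BL/6 mice of 8 weeks, 1 mouse and 1 library each. The normal mouse received olive oil intraperitoneally and the fibrosis mouse carbon tetrachloride (CCl4, a hepatotoxin that injures hepatocytes), 15% in olive oil at 0.6 µl per g of body weight, in both cases with 2 injections a week for 6 weeks, and cells were taken 48 h after the last. Livers were perfused with collagenase, hepatocytes were spun out at low speed, and the cells left after a density gradient were captured for 3′ counting. With 1 library per condition there is no replicate, no test between conditions was made, and every interval given here is a 95% interval for counting error only.

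B cells recognise antigen through a surface immunoglobulin that signals through the Cd79a and Cd79b chains, and their identity is held by transcription factors such as Ebf1 and Pax5. Mature cells that have not met antigen carry IgM and IgD together, whereas activated cells can switch to IgG or IgA and become antibody-secreting plasma cells. In the liver, B cells pass through the sinusoids, present antigen on MHC class II and respond to microbial products that arrive with portal blood.

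The label held against genes that the rule did not use. The T and NK cells set beside the members were limited to at most 1 B marker UMI, so part of this contrast follows from the gates. After each cell was thinned to 1000 UMIs, Ighd (the IgD heavy chain) was detected in 67.4% (63.3-71.3) of normal and 65.8% (60.3-71.1) of fibrosis B cells, against 1.41% and 2.74% of T and NK cells in the same libraries. Without thinning those shares were 89.6% and 89.5% of B cells and 3.59% and 8.84% of T and NK cells, at median depths of 2832.5 and 2361 UMIs per B cell and 4024 and 3363 per T or NK cell. After the same thinning Pax5 was found in 41.4% and 45.0% of thinned B cells and in 0.513% and 1.22% of thinned T and NK cells. Ebf1 differed more between the libraries than Ighd and Pax5, with 76.7% (73.0-80.2) of normal and 58.1% (52.5-63.7) of fibrosis B cells against 0.256% and 0.610% of T and NK cells. Immunoglobulin mRNA was less restricted, since Igkc, the kappa light chain, was found in 56.0% and 43.9% of thinned T and NK cells, and a share of cells with Igha in B cells (30.1% and 43.1%) lay within the counting error of the 28.7% and 42.1% in T and NK cells and is read as background.

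**Figure D1:**
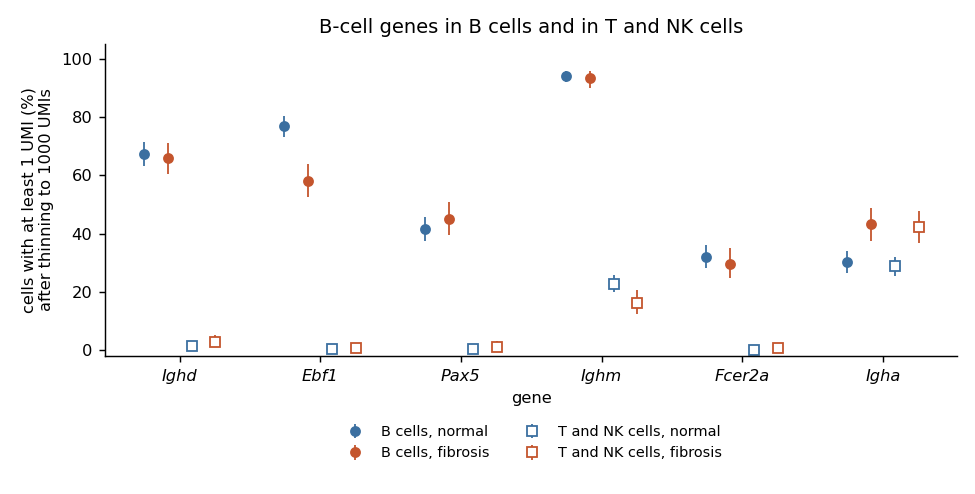
Share of cells with at least 1 UMI of each gene after thinning to 1000 UMIs (y axis, %), for B cells (filled circles) and T and NK cells (open squares) of the normal (blue) and fibrosis (orange) libraries; bars are exact binomial 95% intervals. Ighd, Ebf1, Pax5 and Fcer2a were nearly confined to B cells among these 2 cell classes, whereas Igha was found at like shares in both.

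B cells made up 7.47% (6.88-8.09) of kept cells in the normal library and 5.10% (4.57-5.69) in the fibrosis library. The size of this gap changed with the B marker minimum. With a minimum of 3 instead of 5 UMIs the shares were 7.95% and 7.35%, with a minimum of 10 they were 4.58% and 1.74%, and after thinning every kept cell to 1000 UMIs they were 6.79% and 6.27% with a minimum of 2 and 9.09% and 9.93% with a minimum of 1. Among cells meeting the other limits, 36 normal and 138 fibrosis cells had 3 to 4 marker UMIs and lay just outside, while 80 and 101 had 5 to 6 and lay just inside. The cells just outside held an Ighd UMI in 61.1% (normal) and 60.9% (fibrosis) of cases and the cells just inside in 86.2% and 86.1%. No order of the libraries in B cell share is read from these values.

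**Figure D2:**
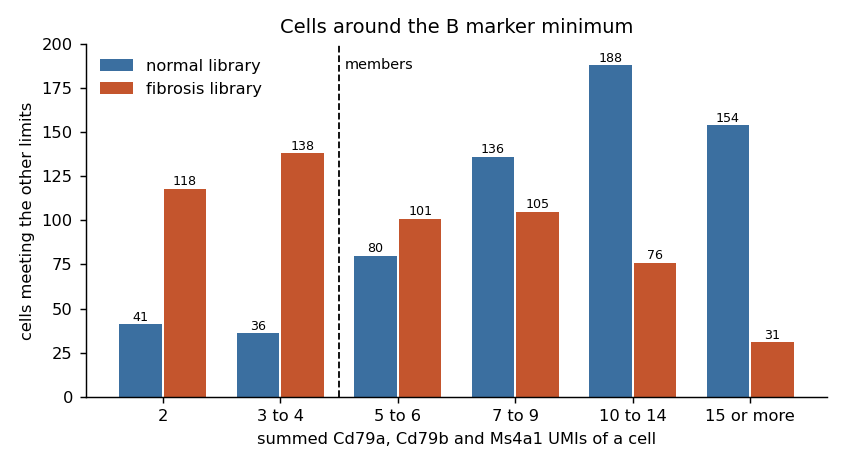
Number of cells (y axis) by summed Cd79a, Cd79b and Ms4a1 UMIs (x axis) among kept cells that met all other limits, normal library in blue and fibrosis in orange; the dashed line is the minimum of 5. The fibrosis library had 138 cells at 3 to 4 UMIs against 36 in the normal library, and 31 against 154 at 15 or more.

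Most B cells of both libraries carried unswitched heavy chains. Among cells with at least 5 heavy chain UMIs, Ighm and Ighd outweighed the switched isotypes with an Ighd UMI present in 493 of 551 normal cells (89.5%, 86.6-91.9) and in 277 of 305 fibrosis cells (90.8%, 87.0-93.8). A further 45 normal cells (8.17%) and 23 fibrosis cells (7.54%) were unswitched without an Ighd UMI. Switched cells numbered 13 (2.36%, 1.26-4.0) and 5 (1.64%, 0.534-3.78), intervals that overlap. Without the Jchain-rich cells described below they were 1.82% and 0.990%, and with a marker minimum of 3 they were 2.76% and 5.62%, so no order of the libraries is read. Ighm, the IgM heavy chain, stood at 43.6 UMIs per 10000 in normal and 31.2 in fibrosis B cells, and Ighd at 10.7 and 8.55. No Ighe UMI was found in the B cells of either library, which allows up to 0.0153 and 0.0276 UMIs per 10000 (3 counts per library).

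Igha, the IgA heavy chain, was 27.9 UMIs per 10000 in normal and 94.4 in fibrosis B cells, but almost all of it lay in a handful of members. In the normal library 3 cells held 2446, 1429 and 938 of its 5482 UMIs, and in the fibrosis library 2 cells held 6084 and 3705 of 10273. The same 5 cells were the only members with at least 20 Jchain UMIs (the joining chain of secreted IgA and IgM), with between 311 and 1352 each where no other member had more than 4. They held 2 to 4 Mzb1 UMIs each, under the rule's limit of 5, no Ighd UMI, and 8475 to 20384 UMIs in all. Without them Igha was 3.46 and 4.58 UMIs per 10000, near the 2.90 and 3.85 in T and NK cells, and Jchain was 1.17 and 0.710 in place of 7.71 and 20.3. These cells were kept in all other sums unless stated.

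Among the light chains, single cells weighed on Igkc and on fibrosis Iglc1. Iglc1, a lambda constant region, was 3.68 UMIs per 10000 in normal and 22.2 in fibrosis B cells, a ratio of 6.04 (5.55-6.57), and 2234 of the 2416 fibrosis UMIs came from 1 cell. Without the 5 cells rich in Jchain its level was 3.62 and 1.58, a log2 ratio of -1.20, so the direction turned. Igkc was 115.6 and 100.3 UMIs per 10000, and without those cells 68.9 and 47.6. Iglc2 and Iglc3, near-identical lambda constant regions whose reads cannot be assigned to one of them with certainty, were 8.40 and 4.89 and 4.27 and 2.65 UMIs per 10000, and without the Jchain-rich cells 8.29 and 4.86 and 4.26 and 2.69. Classing cells with at least 10 light chain UMIs by the lambda part of the total, 25 of 539 normal cells (4.64%, 3.02-6.77) and 13 of 282 fibrosis cells (4.61%, 2.48-7.75) were lambda (50% or more). The kappa class (10% lambda or less) held 170 and 122 cells, and 344 and 147 cells lay between. The lambda part had its fullest bin at 10 to 20%, with 198 and 95 cells, a median of 15.2% and 11.8%, and 11 and 5 cells at 80% or more. Intermediate normal cells had 25 Igkc and 3.64 Iglc2 UMIs per cell, while T and NK cells of that library had 3.59 and 0.111. Variable region genes were too sparse to describe usage, with 280 UMIs (0.502 per cell) and 74 UMIs (0.236 per cell), and 7 and 2 cells with at least 3.

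Across all 4693 genes with at least 0.5 UMIs per 10000 in either library's B cells (mitochondrial, ribosomal-protein, haemoglobin and immunoglobulin segment genes left out), 527 (11.2%) were at least 2 times higher in the fibrosis library and 350 (7.46%) were at most 0.5 of the normal level, and the median log2 ratio was 0.15. With a mitochondrial limit of 5%, which left 21 normal and 16 fibrosis B cells, the balance turned, with 794 higher and 994 lower. Among the 2924 genes at least as high in B cells as over other kept cells in the library where they were higher, 83 were higher and 300 lower, but that filter moves with the change, since the summed hepatocyte genes were 300.3 in normal B cells and 243 UMIs per 10000 over other kept cells against 31.2 and 31.3 in fibrosis, and no direction is read from it. In T and NK cells 367 of the 527 higher genes (69.6%) were also at least 2 times higher, and 281 of the 350 lower genes (80.3%) were also at most 0.5. When the comparison was confined, after its values were seen, to the 159 genes that were at least 2 times as high in B cells as in T and NK cells and as over all other kept cells in each library (called B-cell genes here), 3 (1.89%) were 2 times higher and 3 (1.89%) at most 0.5, with a median log2 ratio of -0.16. Since a gene had to stay 2 times as high in each library, the choice itself limits how many 2-fold changes the set can hold. With the set chosen anew, the 3 lower became 28 of 114 with a marker minimum of 3 and 25 of 122 with an endothelial limit of 5. With the 5% mitochondrial limit (21 and 16 cells) 12 of 101 were higher and 17 lower.

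The sums were weighted by large cells. The 27 normal and 15 fibrosis members with the most UMIs held 20% and 26.5% of all B cell UMIs, and 13 and 19 members had over 10000 UMIs. Leaving out the members above the 95th percentile of UMIs (the top 5% below), which kept 530 and 297 cells, moved the median of the B-cell genes to -0.02 on the log2 scale, and weighting cells equally to 0.02. With a marker minimum of 3 it was -0.61. The B-cell genes were therefore also computed without the top 5%, without the Jchain-rich cells, with cells weighted equally, with minimums of 3 and 10, with another denominator and relative to the median ratio.

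**Figure D3:**
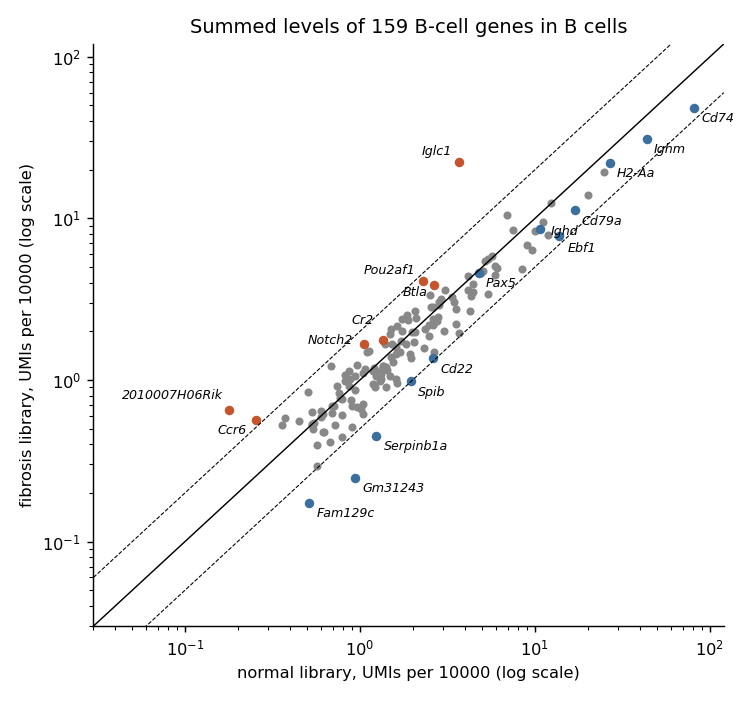
Summed UMIs per 10000 of the 159 B-cell genes in normal (x axis) and fibrosis (y axis) B cells, both axes on a log scale; the solid line is equality and the dashed lines are 2-fold. Iglc1, 2010007H06Rik and Ccr6 lie past the upper line and Serpinb1a, Gm31243 and Fam129c past the lower one.

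Pou2af1, a coactivator that binds octamer factors at immunoglobulin promoters, was higher in the fibrosis library. Its level was 2.29 (2.08-2.51) UMIs per 10000 in normal and 4.09 (3.72-4.49) in fibrosis B cells, a ratio of 1.79 (1.56-2.04), beside 0.0298 and 0.0784 in T and NK cells. It was detected in 22.2% (18.8-25.9) and 41.5% (36-47.2) of thinned B cells, intervals that do not overlap, and in 0.128% and 1.22% of thinned T and NK cells (unthinned, 47.7% and 67.7% of B cells and 1.41% and 3.66% of T and NK cells). The log2 ratio was 1.01 without the top 5% of cells and 1.07 with cells weighted equally, but 0.18 with a marker minimum of 3. Its octamer partner Pou2f2 had a ratio of 0.938 (0.841-1.05).

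Ccr6, the receptor for the gut and skin chemokine Ccl20, was 0.255 (0.189-0.336) UMIs per 10000 in normal and 0.57 (0.437-0.730) in fibrosis B cells, a ratio of 2.23 (1.51-3.31). The T and NK levels were 0.0434 and 0.0422. The log2 ratio of 1.16 was 1.33 without the top 5% and 0.56 with a minimum of 3. Ccr6 was detected in 3.41% (2.06-5.27) and 6.71% (4.20-10.1) of thinned B cells, intervals that overlap. In thinned T and NK cells its shares were 0.128% and 0.915%. The unnamed transcript 2010007H06Rik was 0.178 and 0.652, a ratio of 3.65 (2.41-5.65), and was at 0 and 0.00603 in T and NK cells. Ccr6 and this transcript reached the minimum of 0.5 UMIs per 10000 only in the fibrosis library. They therefore entered through the library where they were higher.

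Several other surface and signalling genes of B cells were higher by less than 2-fold. Notch2, the receptor required for marginal zone B cells, was 1.06 in normal and 1.68 in fibrosis B cells. Tlr1, which forms a lipopeptide receptor with Tlr2, was 0.372 and 0.579, and Tsc22d3, a glucocorticoid-induced gene, was 6.94 and 10.6. Tlr1 reached the minimum of 0.5 UMIs per 10000 only in the fibrosis library. In T and NK cells these 3 were also higher, Notch2 at 0.309 and 0.536, Tlr1 at 0.0922 and 0.157 and Tsc22d3 at 2.31 and 5.24, with log2 ratios of 0.80, 0.77 and 1.18 there against 0.67, 0.64 and 0.60 in B cells. In B cells they were, like Pou2af1, Ccr6 and 2010007H06Rik, higher in each of the settings just named, though with a marker minimum of 3 the log2 ratio of Notch2 was 0.15, that of Tsc22d3 0.09 and that of Tlr1 0.51. The inhibitory receptor Btla (2.66 and 3.85) and the complement receptor Cr2 (1.35 and 1.76) were higher in the members but lower with a marker minimum of 3, where their log2 ratios were -0.12 and -0.25.

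Ebf1, the factor that commits progenitors to the B lineage, was lower in the fibrosis library. It was 13.7 (13.2-14.2) UMIs per 10000 in normal and 7.83 (7.31-8.37) in fibrosis B cells, a ratio of 0.573 (0.530-0.619). The median over normal B cells was 14.4 UMIs per 10000 a cell (quartiles 8.36 and 21.5) and over fibrosis B cells 9.52 (4.45 and 15.2), so the cells of both libraries overlapped widely. Pax5, which acts with Ebf1, was 4.77 and 4.61, a ratio of 0.967 (0.866-1.08).

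Cd22, a sialic acid-binding inhibitor of antigen receptor signalling, was 2.63 (2.41-2.87) and 1.36 (1.15-1.60) UMIs per 10000, a ratio of 0.517 (0.428-0.622). It was detected in 25.1% (21.5-28.9) and 15.7% (11.8-20.2) of thinned B cells and in 0.641% and 0.305% of T and NK cells (unthinned, 56.6% and 35.5% of B cells and 2.18% and 2.13% of T and NK cells). Spib, an Ets-family transcription factor, was 1.96 (1.77-2.16) and 0.983 (0.805-1.19), and it was found in 17.6% and 9.90% of thinned B cells and in 0 of 780 and 0 of 328 thinned T and NK cells, which allows up to 0.385% and 0.915% (unthinned, 40.3% and 26.5% of B cells and 0.640% and 1.22% of T and NK cells). Ebf1, Cd22 and Spib were lower in each of those settings, with log2 ratios of -1.41 to -0.57, -1.49 to -0.77 and -1.62 to -0.78. The B-cell genes past 2-fold lower were the protease inhibitor Serpinb1a (1.24 and 0.450), Fam129c (0.515 and 0.175) and the unnamed Gm31243 (0.943 and 0.248), and they too were lower in all these settings. These genes reached the minimum of 0.5 UMIs per 10000 only in the normal library, where they were higher.

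The proximal promoters of Cd79a, Ccr6 and Cd22 are shown because the first gene defined the members and the other two lay on opposite sides of the comparison. Each line is the 150 bases before the start given by RefSeq on build GRCm38.p6, read 5′ to 3′ on the strand of the gene. Capitals mark an octamer (ATGCAAAT), an EBF palindrome (TCCC, any 2 bases, GGGA) or GAGGAA, an Ets-type sequence called the Ets core below. The search covered both strands. The shorter letters GGAA also occur outside the capitals and were not marked.
Cd79a: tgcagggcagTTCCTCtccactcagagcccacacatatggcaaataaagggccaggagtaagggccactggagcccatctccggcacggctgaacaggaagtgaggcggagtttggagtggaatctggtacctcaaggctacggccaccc
Ccr6: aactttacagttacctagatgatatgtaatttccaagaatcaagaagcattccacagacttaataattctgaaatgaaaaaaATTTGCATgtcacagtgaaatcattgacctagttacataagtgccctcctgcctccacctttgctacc
Cd22: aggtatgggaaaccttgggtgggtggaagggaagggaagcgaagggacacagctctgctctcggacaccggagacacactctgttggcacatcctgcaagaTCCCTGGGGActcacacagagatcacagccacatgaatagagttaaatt
The Cd79a stretch is chr7:24897347-24897496 (+), the Ccr6 stretch chr17:8235893-8236042 (+) and the Cd22 stretch chr7:30879029-30879178 (-). In the GENCODE annotation of the build, Cd79a spans chr7:24897381-24902197, Ccr6 chr17:8236043-8257141 and Cd22 chr7:30865402-30880342, so the Cd79a and Cd22 stretches overlap the longest gene models. In Ccr6 the capitals are an octamer on the opposite strand, 68 to 61 bases before the start, in Cd22 an EBF palindrome 49 to 40 bases before it, and in Cd79a an Ets core on the opposite strand 140 to 135 bases before it. The octamer is in 1.74% of all 32851 promoter windows of 300 bases, the EBF palindrome in 0.904% and the Ets core in 28.3%. Of the 159 B-cell genes, 114 matched 156 promoter windows, of which 5 (3.21%) hold the octamer, those of Blnk, Ccr6, Ms4a4c, Prkcb and Vpreb3, and 4 (2.56%) the EBF palindrome, those of Cd22, Chst3, Il4i1 and Myo1e. The Ets core is in 51 of the 156 (32.7%), and the shorter EBF core CCCNNGGG, which every palindrome contains, in 26 (16.7%) against 13.7% of all windows and 18.3% of those of the genes tested. A match describes the letters of the window and was not tested for binding.

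Of the 17 tested genes of the surface and receptor list, 1 was 2 times higher (Cd38) and 0 were at most 0.5, beside 11.2% and 7.46% of all genes, and 15 of the 17 were B-cell genes. The median log2 ratio was -0.38, but Cd79a, Cd79b and Ms4a1, whose UMIs chose the members, lie under it, and over the other 14 genes, a choice made after the values were seen, it was -0.11, or 0.06 without the top 5% of cells and 0.08 with cells weighted equally, so no direction is read for the list. Cd38, a NAD-consuming ectoenzyme, was 1.63 and 4.64 UMIs per 10000, and in T and NK cells 0.843 and 2.81. The tetraspanin Cd37 was 5.89 and 4.46, the IgM Fc receptor Fcmr 5.4 and 3.39 and the adaptor Bank1 5.38 and 5.62. Cd79a (16.9 and 11.2), Cd79b (11.8 and 7.91) and Ms4a1 (9.04 and 6.85) are given as a description.

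Of the 17 tested genes that relay the antigen receptor signal 0 were past 2-fold in either direction, beside 11.2% and 7.46% of all genes, and their median was 0.10 against 0.15 over all genes. That median turned with the gate, to -0.26 with a marker minimum of 3, -0.05 with 10 and -0.37 with the endothelial limit of 5. It was 0.30 with the 5% mitochondrial limit, which left 21 and 16 cells. The kinase Syk was 5.91 and 5.09 UMIs per 10000 and the adaptor Blnk 1.98 and 1.99, whereas the Src-family kinase Blk was 1.64 and 0.955, a ratio of 0.584 (0.463-0.730). Of 22 B-cell transcription factors 1 was 2 times higher and 0 were at most 0.5, read against the same 11.2% and 7.46%. The higher one was Xbp1 (the plasma cell factor, 1.69 and 3.98), and 48.3% of its fibrosis UMIs came from 3 cells. Without the Jchain-rich cells Xbp1 was no longer past 2-fold. The others included Foxp1 (11.1 and 9.52) and Mef2c (10.0 and 8.36), and the median was -0.13, or -0.02 without the top 5%, 0.05 with cells weighted equally, -0.56 with a marker minimum of 3 and -0.31 with the endothelial limit of 5.

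The median of the class II list was -0.28, or -0.08 without the top 5% of cells and -0.11 with cells weighted equally. It was -0.81 with a marker minimum of 3 and -0.75 with the endothelial limit of 5. With the 5% mitochondrial limit, which left 21 and 16 cells, it was -1.07. Cd74, the invariant chain, was 81.5 (80.3-82.8) UMIs per 10000 in normal and 48.4 (47.1-49.8) in fibrosis B cells, a ratio of 0.594 (0.576-0.613). T and NK cells held 8.44 and 8.45. Over all other kept cells Cd74 was 20.6 and 11.8, also lower in the fibrosis library. The peptide exchange subunit H2-DMa was 3.70 and 1.96, the class II chains H2-Aa 26.8 and 22, H2-Ab1 24.8 and 19.4 and H2-Eb1 20.2 and 13.9, and the class II coactivator Ciita 1.96 and 1.37. Of the 11 tested genes of the list 1 was 2 times higher, the protease Ctss (4.0 and 10.7, and 1.4 and 6.32 in T and NK cells), and 0 were at most 0.5, and of the 14 class I genes 0 passed in either direction, both beside 11.2% and 7.46% of all genes. The class I median was -0.05, and B2m, the shared light chain, was 25.3 and 42.8 in B cells beside 36.3 and 53.3 in T and NK cells.

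Of 8 follicular genes 0 were past 2-fold, beside 11.2% and 7.46% of all genes, with the quiescence factor Klf2 at 9.97 and 8.92, Cd55 at 6.19 and 5.84, Ccr7 at 4.4 and 3.53, Fcer2a at 3.34 and 3.25, and the follicle-homing receptor Cxcr5 at 0.902 and 0.514. Of 6 marginal zone genes 1 was higher, Myof (0.265 and 0.579), and 2 were lower, Plac8 (4.75 and 2.02) and Mzb1 (1.97 and 0.753), of which Mzb1 also entered the rule through its plasma cell limit. Pro-B and pre-B genes reached 0.5 UMIs per 10000 in 0 of 8 cases, and the germinal centre list in 2 of 10, Gna13 and Bcl6, neither past 2-fold. In the B-1 list 5 of 13 genes were tested and 0 passed. In the transitional list, of 7 genes 1 was higher, the receptor Cd93 (0.342 and 1.89), which sinusoidal endothelium also expresses and which was 0.499 and 1.69 in T and NK cells. In the memory list 3 genes were tested and 0 passed. In the plasma cell list 3 of 10 were higher, Jchain, Xbp1 and the chaperone Hsp90b1 (6.26 and 16), and 2 lower, Mzb1 and Slpi (0.780 and 0.294), beside 11.2% and 7.46% of all genes. Jchain and Mzb1 entered the rule, and without the Jchain-rich cells the log2 ratio of Jchain was -0.72 and that of Xbp1 0.70.

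In the homing list 3 of 17 genes were 2 times higher, Ccr6, Itgb1 (1.66 and 4.45) and Cd44 (1.10 and 2.35), and 1 lower, beside 11.2% and 7.46% of all genes, the lower one being the sphingosine 1-phosphate receptor S1pr4 (0.790 and 0.211, a ratio of 0.267). S1pr4 was 0.697 and 0.319 in T and NK cells. In the cytokine list 3 of 6 were higher, Lgals1, Ccl4 and Ccl3, and 1 lower, Ccl5, which was 32.9 and 12.3 in T and NK cells. Among BAFF and TNF receptors 1 of 7 was higher, Tnfrsf1b, while the BAFF receptor Tnfrsf13c was 1.83 and 1.67. Of the 5 Toll-like receptor genes 0 passed; Ly86, the partner of the Cd180 receptor, was 2.47 and 4.56 in B cells and 0.344 and 1.70 in T and NK cells.

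Activation, stress and cell cycle lists are read beside the 11.2% of all genes that were 2 times higher and the 7.46% at most 0.5, from which their counts of a few genes each are not set apart. In the activation list 2 of 12 genes were 2 times higher, the NF-kappaB inhibitor Nfkbia (3.10 and 7.91) and Cd44. Among 18 immediate early genes 3 were, Dusp1 (4.70 and 12.7), Atf3 and Ier3, and Nfkbia and Dusp1 were also higher in T and NK cells (2.69 and 6.82, and 6.07 and 13.0). Of 10 heat shock genes 3 were at most 0.5, Hspa1a (3.8 and 0.726), Hspa1b (4.60 and 0.919) and Dnajb1, and Hspa1a was 6.05 and 0.597 in T and NK cells. Of 17 interferon genes 1 was higher (Oasl2) and 1 lower (Iigp1, 1.38 and 0.377). In the cell cycle list 2 of 13 were higher, Stmn1 (0.918 and 1.99) and Mcm5, with a median of 0.74 that was -0.61 with a mitochondrial limit of 5% (21 and 16 cells), and Mki67 was found in 2.15% and 4.15% of thinned B cells and in 4.23% and 7.62% of thinned T and NK cells. Of 10 survival genes 1 was higher, Bcl2l1 (0.240 and 0.551).

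**Figure D4:**
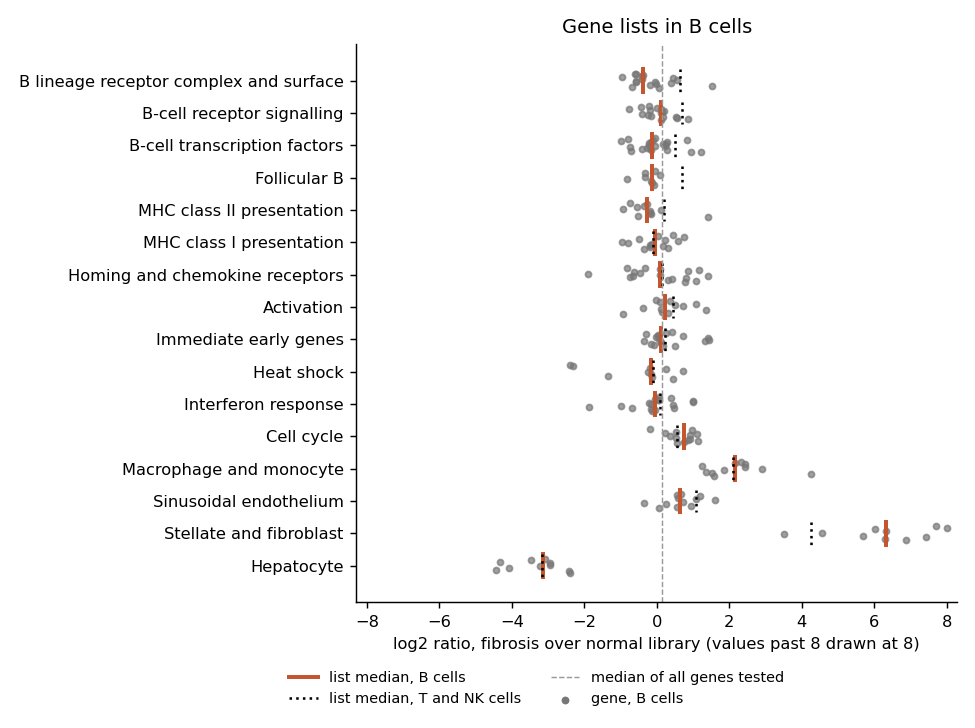
Log2 ratio (values past 8 drawn at 8) of fibrosis over normal (x axis) for each tested gene of 16 lists in B cells (grey points), with the list median in B cells (orange bar), in T and NK cells (dotted bar) and the median of all tested genes in B cells (dashed line, 0.15). Medians of the first 12 lists lay between -0.38 and 0.74, and those of the hepatocyte and stellate lists at -3.15 and 6.32.

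RNA of other liver cells moved with the condition in the same sums. The 10 hepatocyte genes had a median of 333.1 UMIs per 10000 per B cell in the normal library (5th to 95th percentile 156.6 to 558.1) and 29.2 in the fibrosis library (9.63 to 61.8), and in T and NK cells 255.9 and 24.5. The 12 macrophage genes were 7.66 and 37.0 in B cells and 6.06 and 30.5 in T and NK cells. The 11 stellate and fibroblast genes were 0 and 15.2 in B cells and 0 and 13.1 in T and NK cells. Every gene of these lists had a UMI in the B cells of both libraries, except Pdgfra, at 0 in the normal library. In B cells all 10 tested hepatocyte genes were at most 0.5, beside 7.46% of all genes. All 11 tested macrophage genes, all 10 tested stellate genes and 3 of 12 endothelial genes were 2 times higher, beside 11.2% of all genes. The median of the endothelial genes per cell was 14.2 and 28.1 in B cells and 10.3 and 22.1 in T and NK cells. Both classes had to hold under 25 UMIs per 10000 of Kdr, Ptprb and Flt4, which limits the endothelial values. The part of this RNA in the ratios above was not tested.

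The 12 highest and 12 lowest ratios were taken among genes whose B cell level reached that of other kept cells in the library where it was higher and whose change went further than in T and NK cells, so both contrasts are fixed by the choice. Of the 24, Iglc1 alone was a B-cell gene. The lowest were Sds, Hamp2, Agxt, C8a, Klkb1, F12, Ugt2b36, Acat3, Rbp4, Reep6, Baat and Nat8f2. Most are known as products of hepatocytes, such as the retinol carrier Rbp4, which was 10.1 in normal and 0.597 in fibrosis B cells and 7.75 and 0.760 in T and NK cells. Sds had 181 normal and 0 fibrosis UMIs and was 33.5-fold lower when a floor of 3 counts was set in the fibrosis library. The exact interval of its ratio reached up to 0.0371, which allows a smaller change. The highest were Lgi2, Postn, Col15a1, Gpx3, Cx3cr1, Fcgr3, Iglc1, Cyr61, Cdkn2c, Igha, Gyg and Sesn1. The matrix gene Postn was 0.0255 and 2.10, with 85.2% of its fibrosis UMIs in 3 cells, and Col15a1 had 98.6% there. Lgi2 had 0 normal and 64 fibrosis UMIs, with 85.9% of them in 3 cells. It was 38.4-fold higher when the same floor of 3 counts was set in the normal library. The exact interval of its ratio began lower, at 30.4.

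Among those 12, Sesn1 and Gyg were spread over more cells. Sesn1, a stress-inducible inhibitor of mTORC1 signalling, was 0.775 (0.657-0.908) UMIs per 10000 in normal and 2.08 (1.81-2.36) in fibrosis B cells, a ratio of 2.68 (2.17-3.31), and only 5.75% of its fibrosis UMIs lay in 3 cells. T and NK cells held 0.575 and 0.723. Gyg, which primes glycogen synthesis, was 0.214 and 0.579 in B cells and 0.358 and 0.621 in T and NK cells. Cdkn2c, an inhibitor of Cdk4 and Cdk6, was 0.127 and 0.514, with 30.4% of its fibrosis UMIs in 3 cells.

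B cells without an Ighd UMI were compared with those that had one, within each library and among members with at least 1500 UMIs. There were 55 without and 496 with in the normal library, and 32 and 276 in the fibrosis library. Large cells weighed on the fibrosis values, since after removal of the Jchain-rich cells 5 cells with over 10000 UMIs still held 66.4% of the UMIs of the 30 fibrosis cells without Ighd, against 6.61% in the normal library. The values below are therefore without the Jchain-rich cells and the top 5%, 50 and 473 normal and 26 and 265 fibrosis cells, a choice made after the data were seen, and 1 fibrosis cell without Ighd that still had over 10000 UMIs held 17.2% of that group's UMIs.

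Of 3838 genes tested in both libraries without the Jchain-rich cells but with the top 5%, 15 were at most 0.5 in the cells without Ighd in both. Ighd is among these by the choice of the groups. In both libraries 8 genes were at least 2 times higher in those cells. The number of genes past 2-fold within each library is not given, so nothing is read from the size of either overlap. The genes below were chosen after their values were seen. Zfp318, which is required for IgD expression, was 1.07 UMIs per 10000 without and 2.44 with Ighd in the normal library, a ratio of 0.436 (0.256-0.700), and 0.429 and 1.92 in the fibrosis library, 0.224 (0.0456-0.669). The IgE receptor Fcer2a was 1.84 and 4.14, then 2.72 and 4.53, and the chromatin organiser Satb1 1.72 and 4.81, then 3.43 and 5.37. All 3 ratios had intervals under 1 in both libraries. Of the 8 genes, Emb was 0.711 and 0.173, then 2.29 and 0.472, and Rgs1, which dampens chemokine receptor signalling, was 1.60 and 0.672, then 6.44 and 2.24, whereas Mcm7, Palld and Tmed3 had fibrosis ratios under 1 without the top 5%. Outside the 8, Zbtb20 was 5.63 and 2.81, then 6.01 and 3.42, and the switched isotype Ighg2b 3.26 and 0.961, then 1.43 and 0.572. Over all B cells, 3 cells held 26.7% of the normal and 30.9% of the fibrosis Ighg2b UMIs. A few cells may therefore weigh on its ratios here. T and NK cells held 3.70 and 5.59 Emb and 6.75 and 6.44 Rgs1 UMIs per 10000, above or near the cells without Ighd, and their part in these ratios was not tested.

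The B lineage factor Pax5 had a ratio of 1.05 (0.837-1.30) among normal cells and 0.779 (0.532-1.11) among fibrosis cells, and Ebf1 0.963 (0.844-1.09) and 1.08 (0.847-1.37). With only the Jchain-rich cells removed, the fibrosis ratios were 0.419 for Pax5 and 0.555 for Ebf1, and those of the normal library 1.07 and 1.01. Ighm was 59.3 and 47.9 in the normal library, a ratio of 1.24 (1.16-1.32), and 32.6 and 43.1 in the fibrosis library, 0.757 (0.659-0.867). The difference between the libraries in these ratios was not tested.

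**Figure D5:**
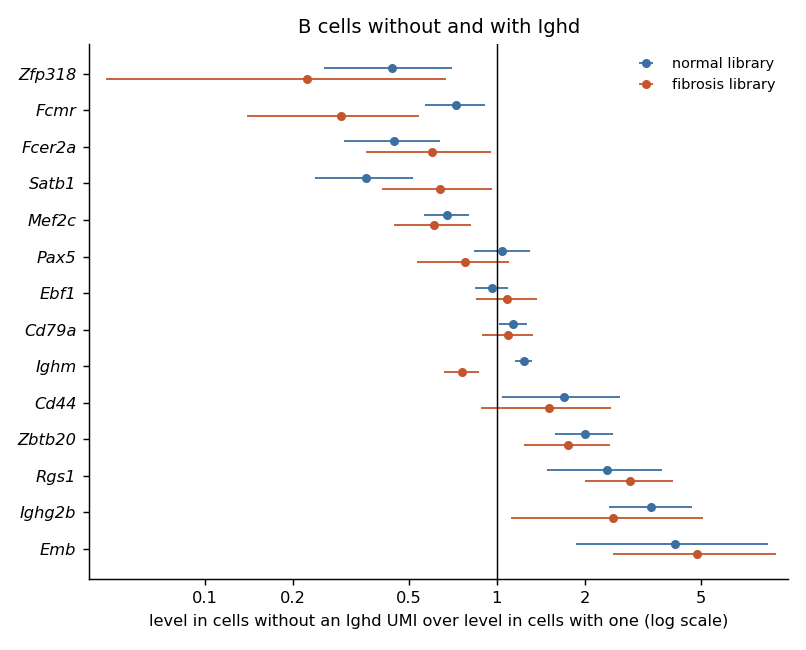
Level in B cells without an Ighd UMI over the level in B cells with one (x axis, log scale) for 14 genes (y axis), normal library in blue and fibrosis in orange, without Jchain-rich cells and the 5% of members with the most UMIs; bars are exact 95% intervals for counting error. Zfp318, Fcmr, Fcer2a, Satb1 and Mef2c lie below 1 in both libraries, and Zbtb20, Rgs1, Ighg2b and Emb above 1.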

How the data were processed

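Liver NPCs of 1 normal and 1 CCl4-treated mouse were analysed. The authors deposited, for each library, raw UMI counts per gene and cell barcode; the submitters' processing notes name Cell Ranger 3.0.1 and mm10. The study's methods state a mitochondrial limit of 10% and over 200 genes, which was applied here. They also state that doublets were tested for and excluded by the authors. The deposited counts still held 659 normal and 305 fibrosis barcodes beyond that mitochondrial limit. Whether doublets had been removed from these counts is therefore not known. No doublet caller was run here, and members of very high UMI counts were left out as an alternative. Of the barcodes, 15 occurred in both libraries, and 1 normal and 1 fibrosis B cell carried such a barcode, none of them in a B cell of both.

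The members and gene lists were chosen with earlier results of these data known. Counts were summed over cells and given as UMIs per 10000, with exact Poisson intervals; ratios have exact conditional intervals and shares exact Clopper-Pearson intervals, at 95%. Gene lengths were not used, since 3′ UMI counts were compared only within a gene. T and NK cells (781 and 328) had at least 3 T and NK UMIs, at most 1 B marker UMI and the other limits above. Named genes are list members, the 5 markers, the immunoglobulin constant genes and the 12 highest and 12 lowest ratios whose level in B cells, in the library where it was higher, reached that over all other kept cells and whose log2 ratio went at least 0.5 further than in T and NK cells; list members other than the highest and those past 2-fold, the B-cell genes and the genes of the Ighd comparison were chosen after their values were seen. Thinning drew 1000 UMIs per cell with a fixed seed and left out 0 B cells and 1 T or NK cell. The B-cell gene settings, the removal of Jchain-rich cells, the thinned minimum of 1 and the restricted Ighd comparison were chosen after seeing the data. Some list members are not reported here. Promoter sequences are from RefSeq, build GRCm38.p6. Python 3.11.15, numpy 2.4.6, scipy 1.17.1, pandas 2.3.3 and matplotlib 3.10.9 were used, and the scripts were tested on simulated data.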

Additional observations from a re-analysis of the deposited data

How the results depend on the processing

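With 1 library per condition, a difference between libraries cannot be told apart from a difference between 2 mice or 2 captures. No paired analysis was possible because each condition has 1 library. Depth limits genes under 0.5 UMIs per 10000, isotype classes and variable genes.

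The share of B cells in the normal and fibrosis libraries was 4.58% and 1.74% with a marker minimum of 10, 4.99% and 1.81% with an endothelial limit of 5 per 10000, 1.13% and 0.938% (21 and 16 cells) with a mitochondrial limit of 5%, 6.79% and 6.27% after thinning with a minimum of 2, and 9.09% and 9.93% with a minimum of 1; a minimum of 3 gave 7.35% in fibrosis and a T and NK limit of 0 gave 6.61% in normal.

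Counts of higher and lower genes were 794 and 994 with the 5% mitochondrial limit, 1053 and 604 at a minimum of 0.2 UMIs per 10000, 272 and 187 at 1, and 83 higher among genes at least as high in B cells as elsewhere, a filter that moves with the change, with 300 lower; B-cell genes alone gave 3 and 3. B-cell genes were chosen anew in each setting: the 3 higher of 159 became 1 of 114 with a marker minimum of 3, 12 of 101 with the 5% mitochondrial limit, 6 of 211 without the top 5% and 6 of 205 with cells weighted equally, and the 3 lower became 28 of 114 with a minimum of 3, 7 of 156 with 10, 25 of 122 with the endothelial limit of 5, 17 of 101 with the 5% mitochondrial limit, 5 of 211 without the top 5%, 6 of 187 with the other denominator and 7 of 159 over the median ratio.

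Median log2 ratios moved with a minimum of 3 to -0.83 (surface), -0.26 (signalling), -0.56 (transcription factors) and -0.81 (class II), and with the endothelial limit of 5 to -0.84, -0.37, -0.31 and -0.75. The signalling median was 0.30 with the 5% mitochondrial limit, 0.25 without the top 5% and 0.23 with cells weighted equally, the class II median -1.07 with the 5% mitochondrial limit, and the factor median -0.27 over the median ratio and 0.05 with cells weighted equally.

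Lambda cells were 2.04% and 1.77% at a lambda part of 80%, and in fibrosis 13.3% with the 5% mitochondrial limit and 9.09% with 30 light chain UMIs. Switched cells in normal and fibrosis were 2.76% and 5.62% with a minimum of 3, 1.76% and 4.67% with 10, 2.70% and 3.81% with the endothelial limit of 5, and 14.3% and 13.3% with the 5% mitochondrial limit. Unswitched cells with Ighd were 85.1% with a minimum of 3, 86.7% with the 5% mitochondrial limit and 95.2% with 15 heavy chain UMIs in fibrosis, and 81.0% with the mitochondrial limit in normal.

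Among the 24 named ratios, 4 of 234 recomputed values turned: Cyr61 (-0.18), Gpx3 (-1.02) and Reep6 (0.56) with the 5% mitochondrial limit, and Iglc1 (-1.20) without the Jchain-rich cells. The cause of these shifts was not tested.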
